A study of Danio rerio with 30 samples.

Results

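The interferon pathway was described here through a list of gene names chosen for their place in interferon signalling or as interferon-stimulated genes. Of these names, 32 matched a symbol of the gene name table exactly, and irf2, ifi30 and socs1a matched through RefSeq synonyms (irf2b, ifi30a and SOCS1). The name nmi matched no ID and was not analysed here. This gave 35 genes of the 31901 in the count table, and all 35 were among the 17841 genes abundant enough to be tested.

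The data were messenger RNA of the spleen, a blood-filtering immune organ, from 30 adult zebrafish of the AB strain aged 100 days. Eggs and larvae were kept at 24, 28 or 32 °C, and all adults lived at 28 °C. At each temperature 5 fish had 12 h earlier been injected in the body cavity with 2 µl of lipopolysaccharide (LPS, 50 mg/ml) from Pseudomonas aeruginosa, and 5 were controls. LPS is a glycolipid of the bacterial outer membrane that in mammals a Toll-like receptor and other sensors detect. What the controls were given and the sex of the fish are not in the labels. Each numbered replicate is taken from the labels as a separate fish, so the p-values reflect only how far these samples vary.

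Interferons are cytokines released after cells sense foreign nucleic acid or other microbial products. Type I interferons signal through receptor-bound JAK kinases to a complex with STAT2 and IRF9 that switches on antiviral effectors such as Mx GTPases, viperin (rsad2), isg15 and IFIT proteins, while interferon gamma in mammals drives IRF1, guanylate-binding proteins and antigen processing genes. In fish the type I interferons are named ifnphi.

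Libraries held 14840723 to 23401031 counts. Levels are in CPM, the count scaled to a common library size after TMM correction, and a log2 fold change of 1 is a doubling. A value after ± is the standard error (SE) of a log2 fold change or, for a level, the standard deviation (SD). A gene was called when its p adjusted over all 17841 genes (edgeR quasi-likelihood test, Benjamini-Hochberg) was under 0.05. Shares of all genes called are those of edgeR. The shares for DESeq2 and limma voom are not given, so counts from those tools cannot be set against the edgeR shares. Erythroid markers, which alone do not identify the spleen, summed to 38148 to 147998 CPM of the library total. The spleen stroma markers tlx1 and pbx1a were detected in every group (103 to 363 CPM summed). In 3 control libraries ovary or liver markers or the number of genes detected stood apart. Ovary markers reached 5234 CPM in 24 °C control replicate 4, liver markers reached 4434 CPM in 32 °C control replicate 8, and 32 °C control replicate 2 had a count for 28134 genes. Calls that were lost without these 3 libraries are given beside their values. Acinar pancreas markers were high in single fish of every group, with highest sums of 9329 to 41169 CPM. Leaving out the 3 libraries therefore does not remove pancreas RNA.

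**Figure D1:**
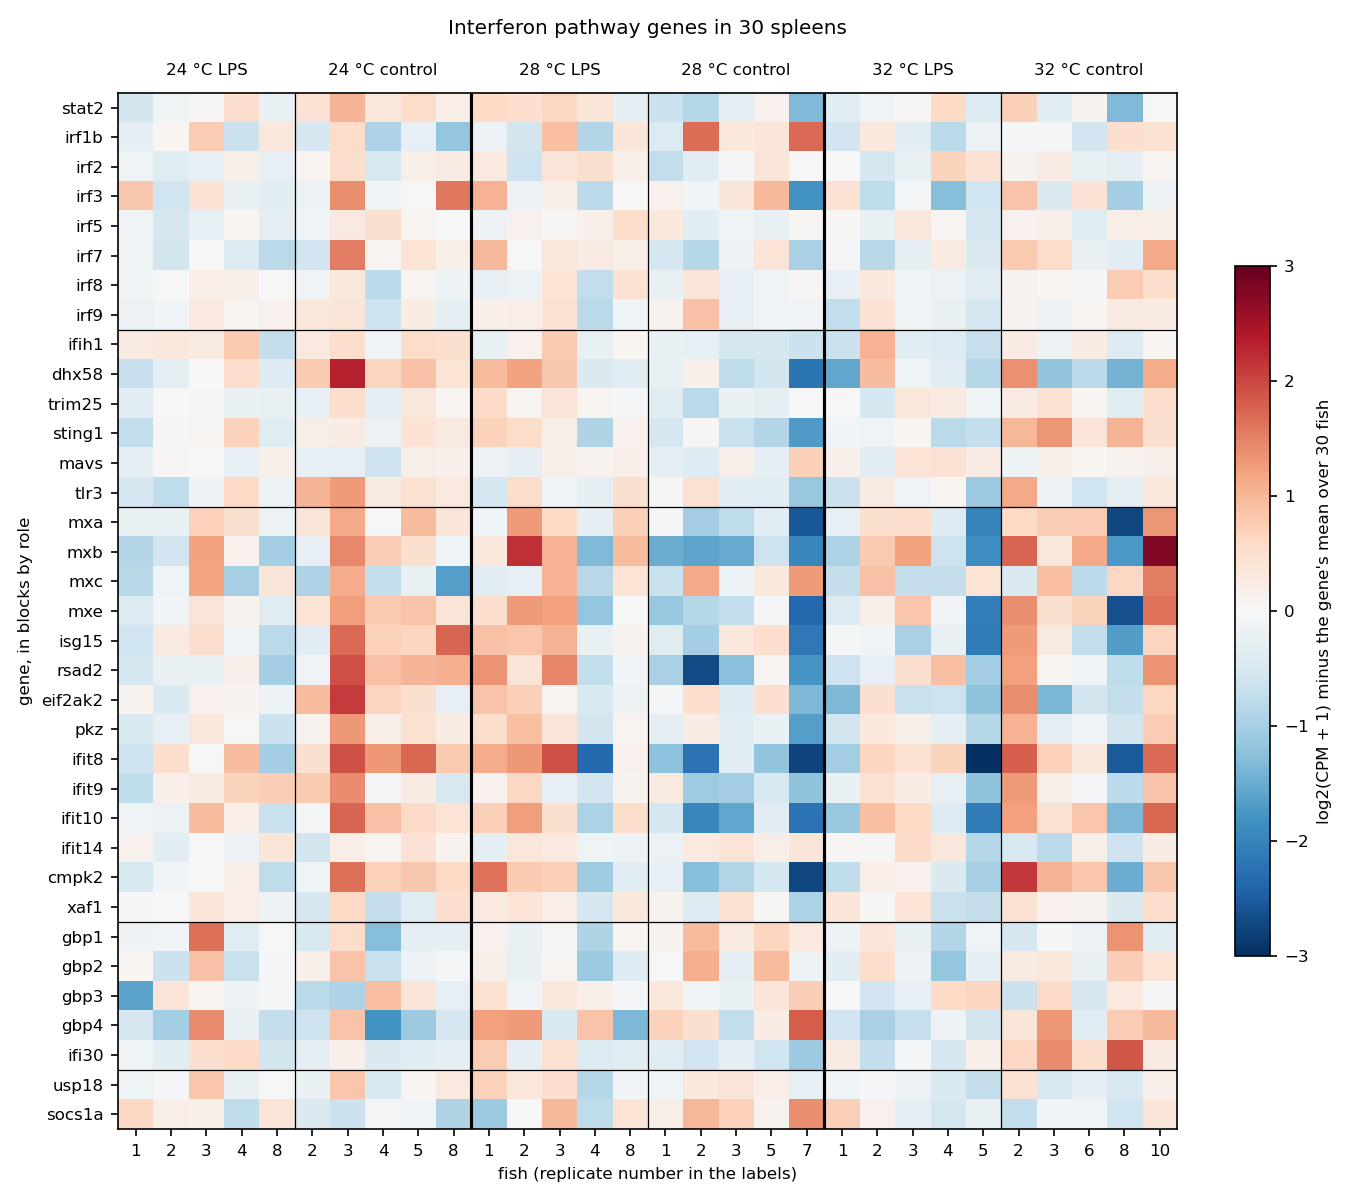
Level of the 35 interferon pathway genes in each of 30 spleens. Rows are genes in blocks by role (signalling and transcription, sensing, antiviral effectors, guanylate-binding proteins with ifi30, feedback), columns are fish by replicate number, and colour is log2(CPM + 1) minus the gene's mean over 30 fish. Blue cells of the mxa, mxb, mxe, ifit8, ifit10, rsad2 and cmpk2 rows gather in 28 °C controls, while the mxc and ifit14 rows do not show this, and single low fish stand out as 28 °C LPS replicate 4, 32 °C LPS replicate 5 and 32 °C control replicate 8.

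The first comparison asks how the interferon genes of LPS fish differed from those of control fish of the same incubation temperature. Their values lay in opposite directions at the 3 temperatures. Most were lower with LPS at 24 and 32 °C and higher with LPS at 28 °C, where the antiviral effectors mxb, ifit8, ifit10, rsad2 and cmpk2 had the largest values among the 35 genes. edgeR called no gene of the list at any temperature.

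At 24 °C, 25 of 35 genes had a log2 fold change below 0 (23 with library totals in place of TMM scaling) and the median was -0.30, against -0.12 over all genes tested, of which 40.7% were above 0. Called genes numbered 0 of 35 with edgeR, as with DESeq2 and limma voom, while 0.0168% of all genes were called. At an unadjusted p under 0.05 there were 7 (rsad2, irf7, tlr3, dhx58, isg15, irf5 and eif2ak2), all lower with LPS. That is 20% of the list, where 16.9% of all genes passed, 5.64% as higher and 11.2% as lower. Without 24 °C control replicate 3, 1 gene was lower and 2 were higher, with library totals 3 were lower, and without the 3 libraries that stood apart 9. The median was -0.18 without 24 °C control replicate 3.

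Cell markers also differed in value between these groups. At 24 °C macrophage and dendritic cell markers (13 IDs, 1 MFAP4 ID at 0 in all controls) summed to 3785 to 6194 CPM (median 4736) in LPS fish, against 1814 to 3760 CPM (median 3413) in controls, without overlap, and 7 of 11 tested had fold changes above 0. Erythroid markers (4 IDs) summed to 42525 to 83742 CPM (median 49017) in LPS fish, against 53967 to 108651 CPM (median 86033) in controls, with 0 of 4 above 0. Of the markers of neighbouring organs, 0 of 10 for acinar pancreas and 0 of 9 tested for liver were above 0. Acinar pancreas markers summed to 265 to 10161 CPM (median 3578) in LPS fish, against 292 to 41169 CPM (median 650) in controls. Their medians thus lay the other way from the fold changes, and the highest sum was in a control. The part of these cells in the interferon gene values was not tested, and in bulk RNA fewer cells of a type and less RNA per cell cannot be told apart.

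Among the transcription factors, irf7 (ENSDARG00000045661), which amplifies type I interferon production, had 55.8, 40.7, 60.5, 44.9 and 33.8 CPM in LPS fish, against 39.9, 175, 63.7, 80.7 and 68.2 CPM in controls. Its log2 fold change was -0.86 ± 0.33 (SE), with an adjusted p of 0.198 from edgeR. The groups overlapped, and 24 °C control replicate 3 held the highest value. Of the sensors, tlr3 (ENSDARG00000016065), an endosomal receptor for double-stranded RNA, had 3.99, 3.19, 5.36, 9.75 and 5.44 CPM in LPS fish, against 13.4, 16.3, 7.52, 8.79 and 7.70 CPM in controls (-0.96 ± 0.40, adjusted p = 0.226). The level of dhx58 (ENSDARG00000089463), the LGP2 helicase that modulates cytosolic RNA sensing, was 13.0, 17.8, 21.5, 31.6 and 16.5 CPM in LPS fish, against 37.8, 112, 34.6, 40.8 and 29.2 CPM in controls (-1.34 ± 0.56, adjusted p = 0.229). Single fish of the LPS group lay within the control range for tlr3 and dhx58.

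Among the effectors at 24 °C, isg15 (ENSDARG00000086374), a ubiquitin-like protein attached to viral and host proteins, had 89.3, 165, 196, 124 and 77.7 CPM in LPS fish, against 107, 446, 222, 213 and 457 CPM in controls (-1.15 ± 0.50, adjusted p = 0.251). For rsad2 (ENSDARG00000004952), the radical SAM enzyme viperin that makes a chain-terminating nucleotide, the values were 24.0, 29.2, 29.2, 38.1 and 16.5 CPM in LPS fish, against 31.9, 133, 64.1, 70.9 and 73.4 CPM in controls (-1.45 ± 0.51, adjusted p = 0.159). The isg15 ranges overlapped through control replicate 2. That fish was also the 1 control within the LPS range of rsad2, and the other 4 controls were above 38.1 CPM, the highest LPS value. The groups did not overlap for mxe (ENSDARG00000014427), a dynamin-like Mx GTPase, with 5.80 to 10.7 CPM in LPS fish against 10.8 to 20.5 CPM in controls (-0.90 ± 0.63, adjusted p = 0.472). It was the 1 gene of 35 with that pattern, which 1.75% of all genes showed in this direction.

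At 28 °C, 25 of 35 genes had a log2 fold change above 0, or 21 with library totals in place of TMM scaling. The median was 0.37, against 0.017 over all genes, of which 51.7% were above 0, and it was 0.12 with library totals. edgeR called 0 of 35 (0.0112% of all genes), DESeq2 called 1, mxb, and limma voom called 0. Unadjusted p was under 0.05 for 14 of the 35, with 13 higher and 1 lower, and with library totals 7 were higher and 4 lower. The 40% of the list compares with 8.19% of all genes, of which 4.07% had a higher and 4.13% a lower value.

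Erythroid markers at 28 °C summed to 57345 to 147998 CPM (median 106756) in LPS fish, against 39165 to 73883 CPM (median 48021) in controls, with 4 of 4 above 0. Neutrophil markers summed to 72.4 to 277 CPM (median 217) in LPS fish, against 141 to 399 CPM (median 344) in controls, with 0 of 5 above 0. Thrombocyte markers summed to 537 to 743 CPM (median 659) in LPS fish, against 800 to 1684 CPM (median 827) in controls, without overlap. All markers of acinar pancreas (10 of 10) and of liver (9 of 9 tested) were above 0, the side on which most interferon genes lay, with liver markers at 65.3 to 299 CPM (median 236) in LPS fish, against 54.7 to 417 CPM (median 172) in controls. Acinar pancreas markers summed to 938 to 34180.5 CPM (median 1379) in LPS fish, against 312 to 22409 CPM (median 1712) in controls. Their median was thus lower in LPS fish, although the fold changes lay above 0. The part of these cells in the values at 28 °C was not tested.

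The gene with the smallest p was mxb (ENSDARG00000004953), another Mx GTPase, with 4.08, 17.7, 7.43, 0.647 and 6.91 CPM in LPS fish, against 0.469, 0.377, 0.432, 1.65 and 0.0577 CPM in controls. Raw counts of mxb were 12, 10, 10, 29 and 1 in these controls, so its log2 fold change of 3.64 ± 1.01 (adjusted p = 0.318) rests on few reads. All LPS fish but replicate 4 were above every 28 °C control. Of the RNA-binding IFIT family, ifit8 (ENSDARG00000057173) had 18.0, 20.7, 31.9, 0.739 and 8.56 CPM in LPS fish, against 2.74, 0.904, 6.09, 2.84 and 0.288 CPM in controls (2.63 ± 0.91, adjusted p = 0.434). LPS replicate 4 was again the low fish.

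The enzyme genes rsad2 and cmpk2 had similar fold changes. At 28 °C rsad2 had 88.6, 45.2, 97.0, 20.05 and 32.2 CPM in LPS fish, against 17.0, 4.52, 13.7, 36.3 and 9.40 CPM in controls (1.81 ± 0.52, adjusted p = 0.325). The mitochondrial nucleotide kinase cmpk2 (ENSDARG00000031359) had 33.8, 18.2, 17.5, 4.34 and 7.84 CPM in LPS fish, against 8.44, 3.58, 5.10, 6.81 and 0.692 CPM in controls (1.73 ± 0.57, adjusted p = 0.407). For each of them the LPS and control ranges overlapped. stat2 (ENSDARG00000031647), the STAT protein particular to type I interferon signalling, had 547, 509, 559, 465 and 301 CPM in LPS fish, against 232, 199, 293, 397 and 145 CPM in controls (0.91 ± 0.29, adjusted p = 0.403), with LPS replicate 8 within the control range. The gene with a lower value and an unadjusted p under 0.05 was irf1b (ENSDARG00000043249), a paralog of IRF1, with 91.2, 69.8, 191, 55.8 and 133 CPM in LPS fish, against 76.9, 328, 127, 133 and 337 CPM in controls (-0.89 ± 0.39, adjusted p = 0.567), where control replicates 2 and 7 were far above the other 3 controls.

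At 32 °C the direction was again downward in value, with 29 of 35 genes below 0, or 33 with library totals, and a median of -0.51, against -0.024 over all genes, of which 47.4% were above 0. edgeR and limma voom called 0 of 35 (0.00561% of all genes with edgeR), and DESeq2 called 1, ifi30. Unadjusted p was under 0.05 for 5 genes, all lower, or 14.3% of the list, against 7.37% of all genes in either direction and 4.67% with a lower value. They were ifi30, sting1, cmpk2, gbp4 and irf7, and without the 3 libraries that stood apart there were 6. The median was -0.30 without 32 °C control replicate 2. Leaving out 32 °C control replicate 8 alone gave 9.

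ifi30 (ENSDARG00000056378), a lysosomal thiol reductase that unfolds antigens for presentation, had 114, 57.8, 92.7, 68.1 and 107 CPM in LPS fish, against 149, 258, 139, 353 and 114 CPM in controls (-1.20 ± 0.29, adjusted p = 0.434). sting1 (ENSDARG00000091058), the adaptor that cyclic dinucleotides activate, had 4.06, 3.86, 4.51, 2.05 and 2.22 CPM in LPS fish, against 9.57, 12.34, 5.93, 9.71 and 6.38 CPM in controls (-1.39 ± 0.40, adjusted p = 0.436). LPS and control fish did not overlap for these 2 genes, a pattern that 0.824% of all genes showed. For ifi30 the highest LPS fish and the lowest control were both at 114 CPM after rounding, and neither gene passed the threshold.

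Most markers of lymphocytes, macrophages and dendritic cells also lay below 0 at 32 °C. B cell and plasma cell markers (5 IDs) summed to 13.6 to 52.5 CPM (median 45.9) in LPS fish, against 53.8 to 102 CPM (median 68.0) in controls, without overlap, and 0 of 5 were above 0. Macrophage and dendritic cell markers summed to 1934 to 4685 CPM (median 3830) in LPS fish, against 2936 to 6257 CPM (median 5743) in controls, with 3 of 11 above 0, and of 9 T and NK cell markers 0 were above 0. Of acinar pancreas markers 0 of 10 and of liver markers 0 of 9 were above 0, and no marker of these lists was called at any temperature. Acinar pancreas markers summed to 187 to 9329 CPM (median 628) in LPS fish, against 565 to 16916 CPM (median 10697) in controls. Their part in the ifi30, sting1 and other values at 32 °C was not tested.

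gbp4 (ENSDARG00000068857), a guanylate-binding protein, had 1.94, 1.21, 1.71, 2.92 and 1.97 CPM in LPS fish, against 4.63, 9.80, 2.47, 6.41 and 7.55 CPM in controls (-1.67 ± 0.72, adjusted p = 0.612). irf8 (ENSDARG00000056407), a factor of myeloid and B cells, had 104, 154, 112, 110.0 and 98.7 CPM in LPS fish, against 133, 129, 120.0, 212 and 179.9 CPM in controls (-0.42 ± 0.21, adjusted p = 0.689). eif2ak2 (ENSDARG00000068729), the kinase PKR that stops translation on double-stranded RNA, had 0.927, 5.92, 2.12, 2.21 and 1.14 CPM in LPS fish, against 11.9, 0.914, 2.37, 2.02 and 6.61 CPM in controls (-0.94 ± 0.60, adjusted p = 0.761). The ranges overlapped for all of them. The same held for gbp2 (ENSDARG00000038669), another guanylate-binding protein gene, which had 22.6, 42.0, 26.1, 12.5 and 23.9 CPM in LPS fish, against 35.3, 36.2, 24.5, 48.8 and 38.5 CPM in controls (-0.53 ± 0.35, adjusted p = 0.769).

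Averaged over the temperatures, the values nearly cancelled. The median of the 35 log2 fold changes was -0.074, the range -0.60 to 0.45, and edgeR, DESeq2 and limma voom each called 0 (0.0112% of all genes called, edgeR). Unadjusted p was under 0.05 for 1 gene, gbp2, with a lower value, against 6.03% of all genes, 4.28% in that direction. Above 0 were 13 of 35, against 42.1% of all genes, or 6 with library totals (median -0.17). Leaving out 1 library gave 8 (without 32 °C LPS replicate 3) to 16 (without 24 °C control replicate 3) above 0 and medians of -0.11 to -0.0032. In 20 of the 35 genes the value was above 0 at 28 °C and below 0 at both 24 and 32 °C. The share of all genes with this pattern was not computed, so the 20 cannot be read as particular to the list. Library totals changed the sign of 2, 4 and 4 of the 35 genes at 24, 28 and 32 °C.

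By role, the antiviral effectors had the medians farthest from 0 at each temperature. Of 14 effectors, 2, 12 and 1 were above 0 at 24, 28 and 32 °C, with medians of -0.78, 1.35 and -0.86. Library totals gave the same 3 counts. The 8 signalling and transcription genes had medians of -0.34, 0.12 and -0.34, and the 6 sensing genes -0.24, 0.57 and -0.33. The 4 guanylate-binding protein genes with ifi30, whose mammalian counterparts respond to interferon gamma, had medians of 0.31, -0.13 and -0.53, on the other side of 0 from these 3 roles at 24 and 28 °C. The 24 °C value of this role leans on LPS replicate 3, far above its group for gbp1 and gbp4. That fish had 401 CPM of gbp1 (others 98.3 to 126 CPM) and 10.7 CPM of gbp4 (others 1.12 to 2.73 CPM). The median of the role without that fish is not given here, so its side of 0 at 24 °C is uncertain. Whether the roles differed from one another was not tested.

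**Figure D2:**
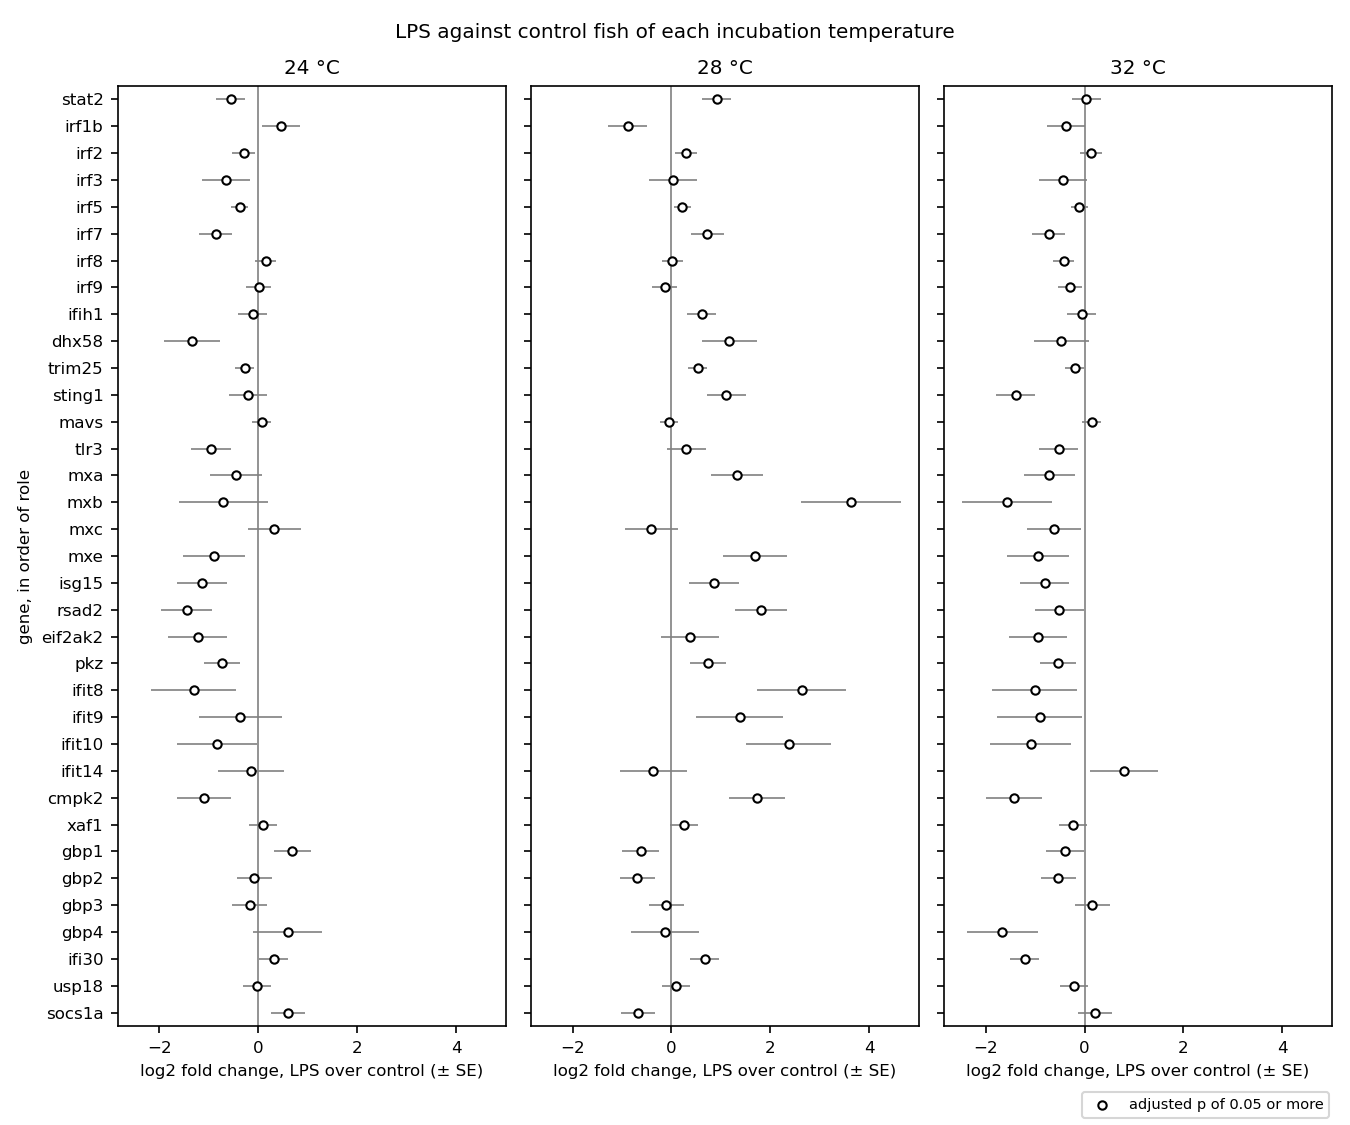
Log2 fold change of each of the 35 genes, LPS over control fish, at 24, 28 and 32 °C incubation (5 fish a group). Circles are edgeR estimates and bars 1 SE, and open circles mark genes that were not called. The points lie mostly left of 0 at 24 and 32 °C and mostly right of 0 at 28 °C, with mxb at 3.64, ifit8 at 2.63 and ifit10 at 2.37 there.

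The next question was whether fish of different incubation temperatures responded differently to LPS. The antiviral gene rsad2 differed in response between 24 and 28 °C: its log2 fold change with LPS was lower at 24 °C by 3.26 ± 0.73 (edgeR adjusted p = 0.0374). Its mean was 27.4 ± 7.94 CPM in LPS fish and 74.7 ± 36.6 CPM in controls at 24 °C, and 56.6 ± 34.3 CPM in LPS fish and 16.2 ± 12.18 CPM in controls at 28 °C (SD, n = 5 each). It was the 1 call among 35 genes, where 0.751% of all genes were called and 0.168% with a lower response at 24 °C. DESeq2 called 7 genes of the list (rsad2, dhx58, stat2, mxb, cmpk2, ifit8 and irf7) and limma voom 2 (rsad2 and stat2). The 0.751% and 0.168% are of edgeR calls and are no background for these counts.

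The rsad2 call depended on single fish. It was lost without any 1 of 24 °C control replicates 3 and 4, 24 °C LPS replicates 1, 2, 3 and 8, 28 °C control replicates 2, 3 and 7 and 28 °C LPS replicates 1 and 3 (differences of -3.28 to -2.92, adjusted p of 0.0534 to 0.0910). It was also lost with no filter on low counts (-3.24, adjusted p = 0.0656). Without the 3 libraries that stood apart it was -3.31 (adjusted p = 0.0479). The difference was below 0 in every fit run.

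Unadjusted p was under 0.05 for 19 of the 35 genes in this contrast, 54.3% of the list against 21.1% of all genes. Values above 0 numbered 10 of 35, against 42.4% of all genes. The 16 with a lower response at 24 °C (12.9% of all genes in that direction) included cmpk2 (-2.83 ± 0.79, adjusted p = 0.0673), stat2 (-1.47 ± 0.42, adjusted p = 0.0695) and irf7 (-1.59 ± 0.47, adjusted p = 0.0794). The 3 with a higher response (8.23% of all genes) were socs1a (1.27), gbp1 (1.31) and irf1b (1.34). With library totals 10 were lower and 3 higher. In mammals the products of the 3 genes with a higher response belong to the interferon gamma and JAK feedback branches, IRF1 and guanylate-binding proteins as targets and SOCS1 as an inhibitor of JAK kinases. The difference for ifi30, grouped by role with gbp1, lay below 0, and that for gbp3 changed sign with library totals. For gbp1, 24 °C LPS replicate 3 stood far above its group (401 CPM, others 98.3 to 126 CPM). For irf1b, 28 °C control replicates 2 and 7 were the highest of their group.

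Further genes of the list had smaller or less certain differences between 24 and 28 °C. At 24 °C pkz (ENSDARG00000052396), a fish kinase related to PKR that binds Z-form nucleic acid, had 9.33, 10.9, 16.8, 13.3 and 8.05 CPM in LPS fish, against 14.1, 33.97, 14.7, 18.3 and 15.6 CPM in controls. At 28 °C it had 19.4, 25.6, 17.6, 8.59 and 13.9 CPM in LPS fish, against 10.5, 15.4, 10.2, 11.2 and 3.52 CPM in controls, a difference in response of -1.47 ± 0.52 (adjusted p = 0.115). LPS fish were the lower group in median at 24 °C and the higher group at 28 °C, with overlap at both. irf5 (ENSDARG00000045681), a factor downstream of Toll-like receptors, had at 24 °C 29.2, 22.0, 26.3, 33.2 and 25.4 CPM in LPS fish, against 29.1, 38.0, 44.7, 33.6 and 31.4 CPM in controls. At 28 °C irf5 had 27.8, 34.7, 32.5, 35.2 and 46.8 CPM in LPS fish, against 39.4, 25.3, 28.6, 26.7 and 32.2 CPM in controls (-0.60 ± 0.24, adjusted p = 0.160). The spans of irf5 overlapped at both temperatures.

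irf2 (ENSDARG00000040465), which in mammals competes with IRF1 at its sites, ranged over 66.4 to 97.0 CPM in LPS fish and 61.3 to 124 CPM in controls at 24 °C, and over 55.9 to 119.7 CPM in LPS fish and 51.2 to 111 CPM in controls at 28 °C (-0.59 ± 0.32, adjusted p = 0.288). The spans of irf2 overlapped at both temperatures.

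Between 32 and 28 °C, 0 of 35 genes were called with edgeR or limma voom (0.112% of all genes called, edgeR), and DESeq2 called 4 (ifi30, sting1, mxb and cmpk2). At an unadjusted p under 0.05 there were 15, all with a lower response at 32 °C, or 42.9% of the list against 10.1% of all genes, 4.78% with a higher and 5.31% with a lower response. The smallest p values belonged to ifi30 (-1.88 ± 0.41, adjusted p = 0.0666), sting1 (-2.49 ± 0.56, adjusted p = 0.0686), cmpk2 (-3.15 ± 0.80, adjusted p = 0.106) and mxb (-5.21 ± 1.35, adjusted p = 0.124). Leaving out 28 °C LPS replicate 4 or 32 °C control replicates 6, 8 or 10 gave 1 or 2 calls in this contrast.

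Other genes of the list had small or imprecise differences between 32 and 28 °C. xaf1 (ENSDARG00000068939), linked to cell death, differed by -0.50 ± 0.40 (adjusted p = 0.729), and usp18 (ENSDARG00000088078), which removes isg15 and damps the interferon receptor, by -0.31 ± 0.40 (adjusted p = 0.855). mavs (ENSDARG00000069733), the mitochondrial adaptor of RNA sensing, differed by 0.20 ± 0.27 (adjusted p = 0.859) and ranged over 38.7 to 65.7 CPM in LPS fish and 43.4 to 54.0 CPM in controls at 32 °C. ifit14 (ENSDARG00000071012) was low in all fish, at 0 to 1.66 CPM (1.17 ± 0.96, adjusted p = 0.741). A p above the threshold does not show that these genes responded alike at both temperatures.

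Between 32 and 24 °C the median difference in response was -0.05 against 0.087 over all genes, and between -0.38 (without 32 °C LPS replicate 2) and 0.10 (without 32 °C control replicate 10) with 1 library left out. edgeR, DESeq2 and limma voom each called 0 of 35 (0.0224% of all genes called, edgeR), and 3 genes had an unadjusted p under 0.05 (9.9% of all genes, 5.75% higher and 4.15% lower), all lower at 32 °C, namely ifi30 (-1.52), gbp4 (-2.25) and sting1 (-1.18). Without 24 °C LPS replicate 3 there was 1 such gene, and without 24 °C control replicate 3 there were 6. irf9 (ENSDARG00000016457), the DNA-binding partner of STAT2, differed by -0.30 ± 0.35 (adjusted p = 0.802). For gbp3 (ENSDARG00000003244) the difference was 0.33 ± 0.50 (adjusted p = 0.856).

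The third comparison asks how the interferon genes of control fish differed with incubation temperature. The antiviral genes mxa, mxb, mxe, ifit8, ifit9, ifit10, rsad2 and cmpk2 had lower values in 28 °C controls than in 24 or 32 °C controls. Of these, rsad2 was higher at 24 °C than at 28 °C and was called, while ifi30 and sting1 were higher at 32 °C than at 28 °C and were called. In the opposite direction, irf1b and socs1a had higher values in 28 °C controls than at either other temperature and were not called. The 28 °C controls also enter the 28 °C LPS comparison and both differences of response against 28 °C, so those results are not independent of these.

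Between 24 and 28 °C controls, 1 gene of 35 was called, where 2.47% of all genes were called and 1.54% with a higher value at 24 °C. rsad2 had 31.9, 133, 64.1, 70.9 and 73.4 CPM in 24 °C controls, against 17.0, 4.52, 13.7, 36.3 and 9.40 CPM in 28 °C controls, a log2 fold change of 2.21 ± 0.52 (SE, adjusted p = 0.0290). Only 24 °C replicate 2 lay below the highest 28 °C fish, replicate 5. The call was lost without any 1 of 24 °C control replicate 4 and 28 °C control replicates 2, 3 and 7 (1.93 to 2.21, adjusted p of 0.0658 to 0.115), and in a fit of only these groups (2.17, adjusted p = 0.116). Without the 3 libraries that stood apart it was 2.26 (adjusted p = 0.100).

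Most of the list lay above 0, with 24 of 35 genes against 58.9% of all genes and a median of 0.62 against 0.11, or 0.37 without 24 °C control replicate 3. Unadjusted p was under 0.05 for 19 of 35 (54.3%), against 19.9% of all genes. Of these, 17 were higher at 24 °C (12.8% of all genes) and 2 lower (7.11% of all genes), and without 24 °C control replicate 3, the highest of its group in most of these genes, 12 were higher and 5 lower. The 24 and 28 °C controls did not overlap for 9 genes that were higher at 24 °C, against 1.48% of all genes, and for 1 that was lower, against 2.07%. The first set was stat2, ifih1, dhx58, mxa, mxb, mxe, ifit8, ifit10 and cmpk2, and the other gene was socs1a. DESeq2 called 10 genes of the list (rsad2, dhx58, stat2, mxb, mxe, cmpk2, ifit8, ifit10, irf1b and socs1a), and limma voom called 0. The share of all genes that DESeq2 called in this contrast is not given, so the 10 have no background here.

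Among the effectors, ifit10 (ENSDARG00000007467) had 3.49, 14.6, 7.47, 5.82 and 5.15 CPM in 24 °C controls, against 2.19, 0.188, 0.562, 2.72 and 0 CPM in 28 °C controls (2.69 ± 0.87, adjusted p = 0.0868). For mxe the values were 11.0, 20.5, 14.5, 15.4 and 10.8 CPM at 24 °C, against 3.09, 3.99, 4.41, 7.60 and 0.750 CPM at 28 °C (1.86 ± 0.65, adjusted p = 0.108). Every 24 °C fish was above every 28 °C fish for both genes. For stat2 the fold change was 1.05 ± 0.30 (adjusted p = 0.0508) and for ifit8 3.04 ± 0.92 (adjusted p = 0.0686).

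The genes with a lower value at 24 °C and an unadjusted p under 0.05 were a transcription factor and a feedback inhibitor. irf1b had 71.6, 152, 54.0, 86.4 and 45.1 CPM in 24 °C controls, against 76.9, 328, 127, 133 and 337 CPM in 28 °C controls (-1.29 ± 0.39, adjusted p = 0.0707). socs1a (ENSDARG00000038095), an inhibitor of JAK kinases, had 19.9, 17.3, 26.8, 25.7 and 14.1 CPM at 24 °C, against 31.0, 55.4, 44.6, 29.3 and 74.1 CPM at 28 °C (-1.17 ± 0.35, adjusted p = 0.0621). The highest irf1b values belonged to 28 °C replicates 2 and 7, and the highest socs1a values to the same pair of fish.

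Between 32 and 28 °C controls, 2 of 35 genes were called, both higher at 32 °C, where 0.633% of all genes were called and 0.42% with a higher value at 32 °C. ifi30 had 149, 258, 139, 353 and 114 CPM in 32 °C controls, against 76.2, 64.8, 79.4, 62.8 and 44.8 CPM in 28 °C controls (1.63 ± 0.30, adjusted p = 0.0162). sting1 had 9.57, 12.34, 5.93, 9.71 and 6.38 CPM at 32 °C, against 2.74, 4.44, 2.33, 1.87 and 0.635 CPM at 28 °C (1.86 ± 0.40, adjusted p = 0.0310). The groups did not overlap for either gene, as for 1.63% of all genes in this direction.

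The ifi30 call was lost without 28 °C control replicate 7 (1.52, adjusted p = 0.0527), the fish with its lowest level. The sting1 call was lost without any 1 of 24 °C LPS replicates 3 and 8, 28 °C control replicates 3, 5 and 7 and 32 °C control replicates 2, 3 and 8 (1.62 to 1.85, adjusted p of 0.0528 to 0.0801). Without the 3 libraries that stood apart the values were 1.38 for ifi30 (adjusted p = 0.0639) and 1.76 for sting1 (adjusted p = 0.121), and neither was called in a fit of only these groups (adjusted p = 0.121 and 0.129).

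Most markers of macrophages, dendritic cells and B cells also had higher values in 32 °C than in 28 °C controls, with overlapping sums. The macrophage and dendritic cell markers (13 IDs, 11 tested, 1 MFAP4 ID at 0 in all 28 °C controls) summed to 2936 to 6257 CPM in 32 °C controls and 2572 to 4606 CPM in 28 °C controls, with 2 called higher (0.42% of all genes) and 8 of 11 above 0. B cell and plasma cell markers summed to 53.8 to 102 CPM in 32 °C controls and 19.9 to 69.7 CPM in 28 °C controls, with 1 of 5 called higher and 4 above 0. Acinar pancreas markers summed to 565 to 16916 CPM (median 10697) in 32 °C controls. In 28 °C controls they summed to 312 to 22409 CPM (median 1712). The part of all these cells in the ifi30 and sting1 values of controls was not tested.

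Of all 35 genes, 25 were above 0 between 32 and 28 °C controls, against 53.3% of all genes, with a median of 0.45 against 0.033. The median was 0.22 without 32 °C control replicate 2 and 0.35 without the 3 libraries that stood apart. mxb had 12.8, 4.16, 7.97, 0.231 and 27.0 CPM at 32 °C, against 0.469, 0.377, 0.432, 1.65 and 0.0577 CPM at 28 °C (4.13 ± 1.03, adjusted p = 0.0558). mxa (ENSDARG00000021688), an Mx GTPase, had 43.1, 47.2, 48.7, 3.41 and 72.3 CPM at 32 °C, against 27.5, 13.2, 16.2, 22.3 and 3.98 CPM at 28 °C (1.37 ± 0.53, adjusted p = 0.212). In each case 32 °C replicate 8 fell within or below the 28 °C values while the other 4 fish were above all of them.

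trim25 (ENSDARG00000104396), a ubiquitin ligase that in mammals activates RIG-I, had 139, 161, 123, 90.5 and 170.3 CPM at 32 °C, against 94.3, 65.9, 103, 96.2 and 118 CPM at 28 °C (0.52 ± 0.19, adjusted p = 0.187). 32 °C replicate 8 was again the lowest at 32 °C. ifit9 (ENSDARG00000008098) had 4.63, 1.62, 1.28, 0.347 and 3.22 CPM at 32 °C, against 1.80, 0.113, 0.130, 0.681 and 0 CPM at 28 °C (2.00 ± 0.89, adjusted p = 0.287), again with replicate 8 lowest. In total 14 of 35 genes had an unadjusted p under 0.05 (40% against 14.4% of all genes), 12 higher at 32 °C (8.17% of all genes) and 2 lower, irf1b and socs1a (6.27%). DESeq2 called 7 (ifi30, sting1, mxb, mxe, rsad2, cmpk2 and ifit10), and limma voom called ifi30 and sting1.

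Between 32 and 24 °C controls the list had a median of -0.0085 against -0.073 over all genes, and between -0.17 (without 32 °C control replicate 10) and 0.19 (without 24 °C control replicate 3) with 1 library left out. edgeR and limma voom called 0 of 35 (0.0224% of all genes with edgeR). DESeq2 called 1, ifi30, which was also the 1 gene with an unadjusted p under 0.05 in edgeR (1.30 ± 0.29, adjusted p = 0.0771; 15.7% of all genes). It had 77.7, 107, 71.4, 76.6 and 78.8 CPM in 24 °C controls, all below the 32 °C controls. Without 24 °C control replicate 3 there were 6 genes higher at 32 °C with such a p, and without 32 °C control replicate 2 there were 5 lower. mxc (ENSDARG00000024789), an Mx GTPase, had 39.9, 101, 30.8, 83.2 and 159 CPM at 32 °C, against 27.7, 117, 31.8, 46.1 and 16.5 CPM at 24 °C (0.79 ± 0.54, adjusted p = 0.473). These ranges overlapped.

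irf3 (ENSDARG00000076251), a factor switched on downstream of nucleic acid sensors, had 25.1, 9.65, 18.4, 6.18 and 11.9 CPM at 32 °C, against 11.8, 36.8, 12.25, 13.7 and 42.0 CPM at 24 °C (-0.71 ± 0.49, adjusted p = 0.475). gbp1 (ENSDARG00000038668) had 88.7, 124, 111, 322 and 100.5 CPM at 32 °C, against 89.8, 186, 51.6, 104 and 103 CPM at 24 °C (0.48 ± 0.38, adjusted p = 0.537). ifih1 (ENSDARG00000018553), the cytosolic RNA sensor MDA5, had 19.7, 14.5, 19.3, 12.25 and 16.9 CPM at 32 °C, against 20.4, 24.0, 15.0, 24.5 and 23.0 CPM at 24 °C (-0.37 ± 0.30, adjusted p = 0.545). All 3 genes overlapped between these groups.

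**Figure D3:**
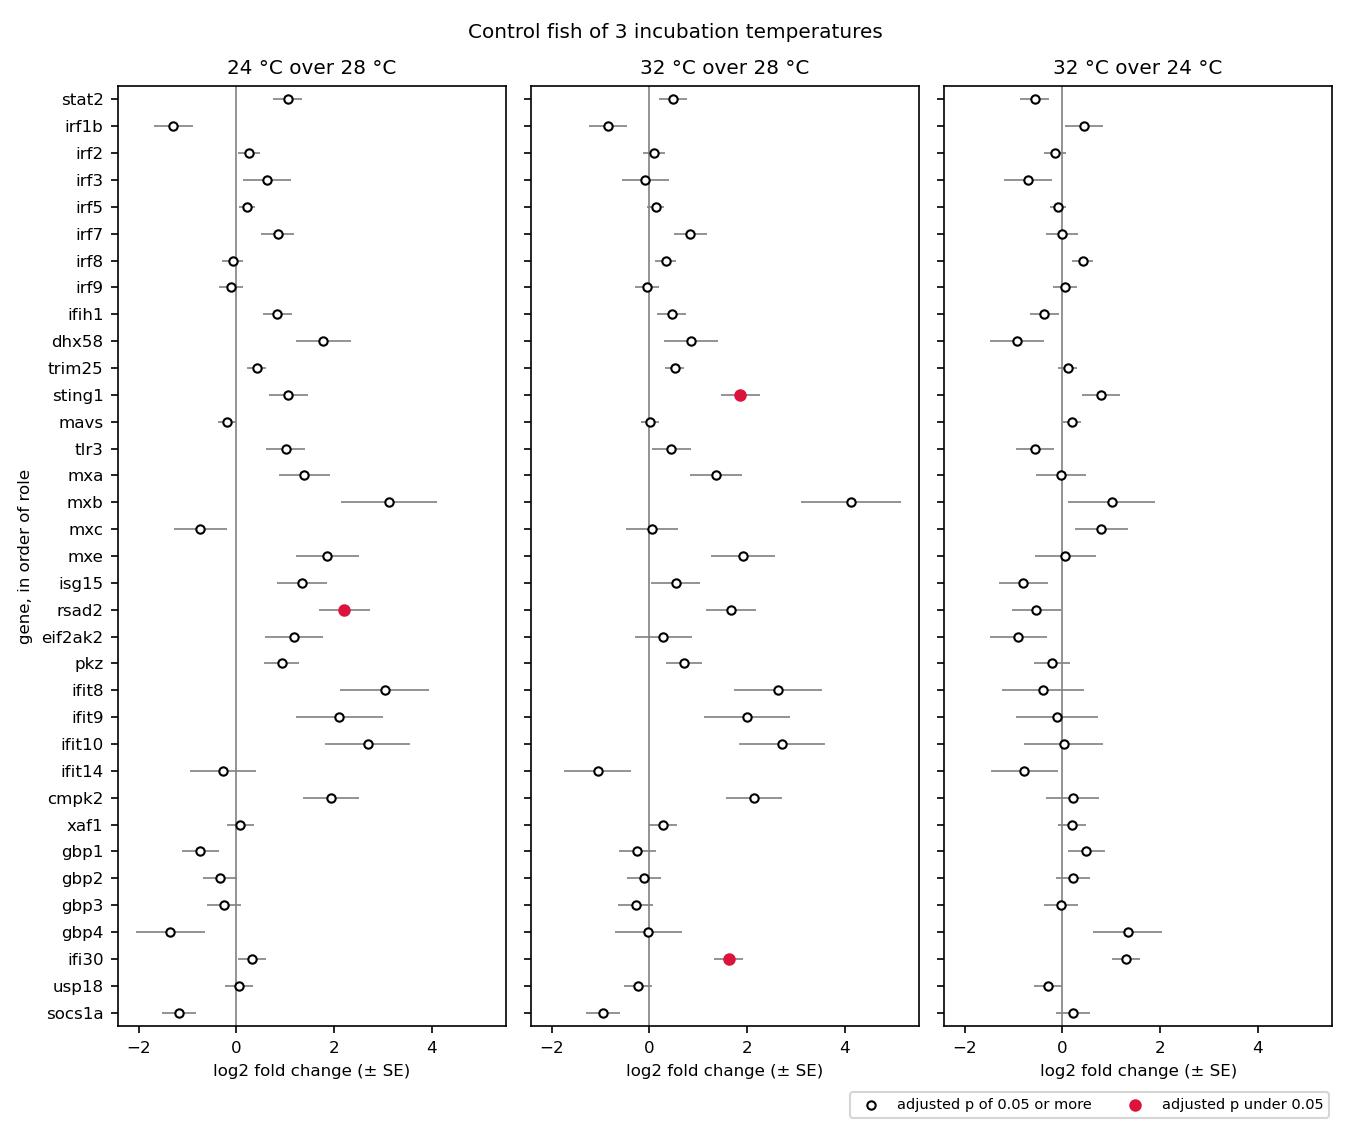
Log2 fold change of each of the 35 genes between control fish of different incubation temperatures (5 fish a group). Circles are edgeR estimates with bars of 1 SE, and filled circles mark called genes. rsad2 (2.21) is filled in the panel of 24 over 28 °C, ifi30 (1.63) and sting1 (1.86) in that of 32 over 28 °C, and points lie on both sides of 0 in that of 32 over 24 °C.

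Other cell markers also differed in value between the control groups. Neutrophil markers (5 IDs, none at 0 in a group) summed to 134 to 258 CPM in 24 °C controls, 141 to 399 CPM in 28 °C controls and 39.9 to 243 CPM in 32 °C controls, and all 5 had values below 0 in both comparisons with 28 °C, with 0 called. Erythroid markers (4 IDs) summed to 53967 to 108651 CPM in 24 °C controls, 39165 to 73883 CPM in 28 °C controls and 38148 to 86636 CPM in 32 °C controls. The erythroid medians were 86033, 48021 and 77352 CPM in the 24, 28 and 32 °C controls, lowest at 28 °C. T and NK cell markers (9 IDs) summed to 43.2 to 77.7, 40.1 to 89.4 and 57.2 to 85.2 CPM in the 24, 28 and 32 °C controls. Their part in the values of the interferon genes was not tested.

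The fourth comparison set LPS fish of different incubation temperatures side by side. No gene of the list was called in any of the 3 contrasts with edgeR, DESeq2 or limma voom, and 0% of all genes were called with edgeR in each. Most genes had lower values in 24 and 32 °C LPS fish than in 28 °C LPS fish. At 24 against 28 °C, 27 of 35 were below 0 (median -0.32, against -0.012 over all genes), or 20 with library totals in place of TMM scaling. That median was -0.075 without 28 °C LPS replicate 2 and -0.062 with library totals. At 32 against 28 °C, 32 of 35 were below 0 (median -0.37, against -0.0094 over all genes), and 25 to 32 with 1 library left out. With library totals 7 of 35 were above 0 there, in place of 3, and the median was -0.31. Over all genes 49% and 48.8% were above 0 at 24 and at 32 against 28 °C. Unadjusted p was under 0.05 for 3, 2 and 0 genes (24 against 28, 32 against 28 and 32 against 24 °C), against 8.93%, 4.1% and 4.23% of all genes. With 1 library left out these were 0 to 5, 0 to 4 and 0 to 2. rsad2 had 22.1, 28.6, 49.3, 65.2 and 16.2 CPM in LPS fish and 81.8, 35.6, 31.3, 19.8 and 89.1 CPM in controls at 32 °C, which completes its 30 values, and the spans of its 3 LPS groups overlapped.

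ifi30 had 87.2, 76.1, 137, 144 and 65.8 CPM in 24 °C LPS fish and 163, 78.9, 133, 72.2 and 75.6 CPM in 28 °C LPS fish. sting1 had 2.18, 4.44, 4.63, 7.55 and 3.14 CPM in LPS fish and 4.98, 5.17, 3.68, 6.14 and 5.36 CPM in controls at 24 °C, and 7.52, 6.75, 5.03, 1.85 and 4.80 CPM in 28 °C LPS fish. All 3 LPS groups overlapped for both genes, and the ifi30 range of 32 °C controls reached down into those of 24 and 28 °C LPS fish.

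**Figure D4:**
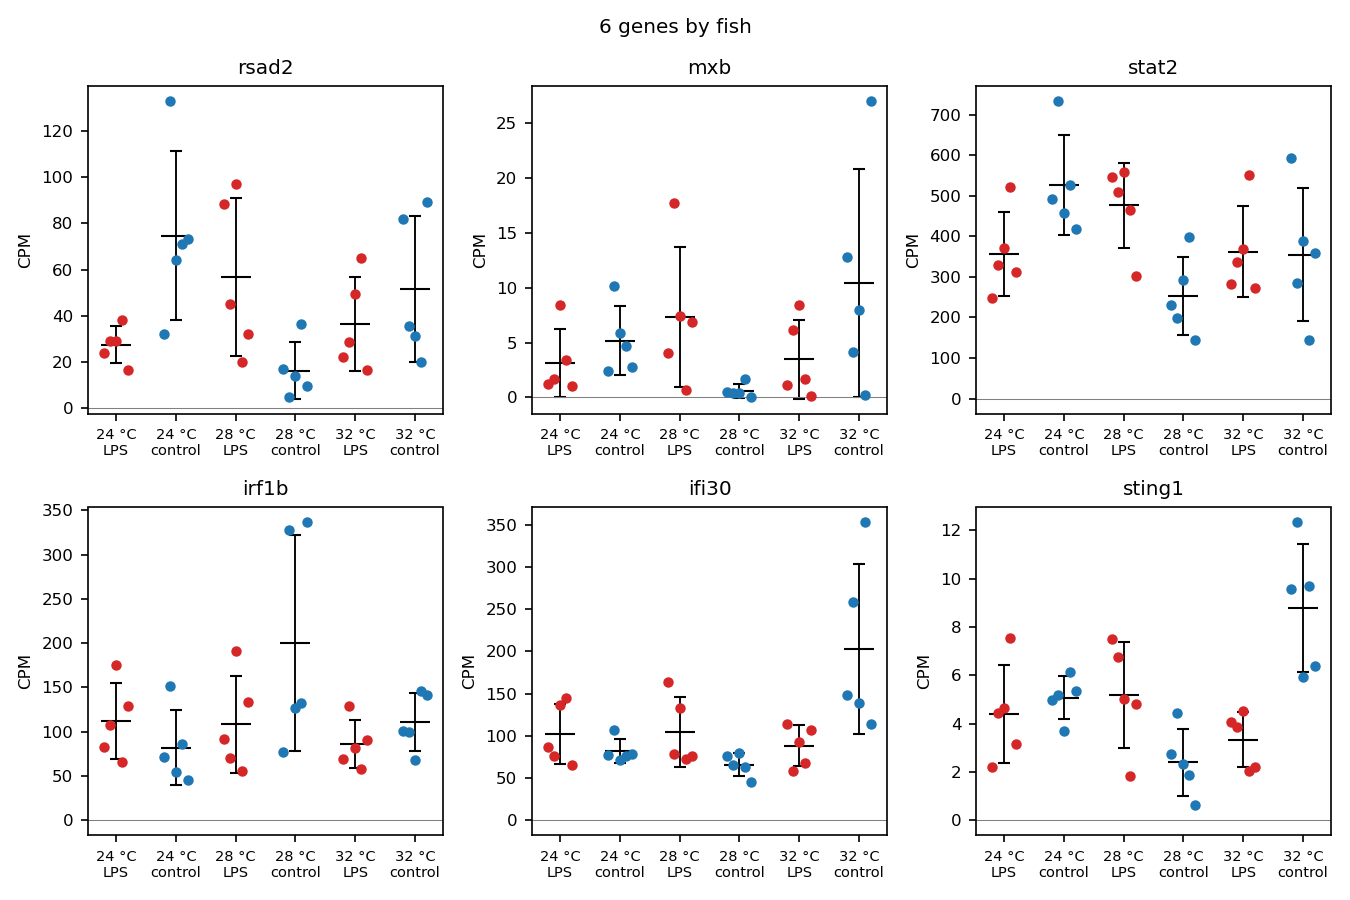
CPM of 6 genes in every fish, with LPS fish in red and control fish in blue at each incubation temperature, and the mean with its SD as a dash and bars (n = 5). The genes were picked after their values were seen to show the patterns of the list: rsad2, mxb and stat2 with low 28 °C controls, irf1b with 2 high 28 °C controls, and ifi30 and sting1 with high 32 °C controls.

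No fish was the highest or the lowest of its group for all 35 genes. The median over the 35 genes of log2(CPM + 1), each centred on its mean over 30 fish, ranged from -0.96 in 28 °C control replicate 7 to 0.87 in 24 °C control replicate 3. Over all genes tested the same measure ranged from -0.054 to 0.064, but scaling to a common library size holds that median near 0. The comparison therefore does not show that the wider range is particular to these genes. 24 °C control replicate 3 had the highest value of its group in 26 of 35 genes, where it was highest in 21.4% of all genes. 28 °C control replicate 7 was the lowest of its group in 20 of 35 (25.4% of all genes) and the highest in 7, among them irf1b, socs1a, mxc and gbp4. Low fish were also found in the other groups of 28 and 32 °C: 28 °C LPS replicate 4 was lowest in 23 genes, 32 °C LPS replicate 5 in 18 and 32 °C control replicate 8 in 19 (21.7%, 20.6% and 16.7% of all genes).

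Position was not used to choose the list, and on the GRCz12tu RefSeq annotation 6 pairs of its genes are direct protein-coding neighbours: mxa with mxb, mxc with mxe, ifit9 with ifit10, pkz with eif2ak2, rsad2 with cmpk2 and gbp1 with gbp2. With LPS at 28 °C, rsad2 and cmpk2 had 1.81 and 1.73, ifit9 and ifit10 had 1.38 and 2.37, and mxa and mxb had 1.32 and 3.64. mxc and mxe lay on opposite sides, at -0.41 and 1.68 there and at -0.74 and 1.86 between 24 and 28 °C controls, a difference between genes that was not tested. Reads of such close relatives can be shared, so the split between members of a pair of paralogs is uncertain.

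Further genes of the pathway, from lists that hold none of the 35, were seldom called. Of the interferons, ifnphi2, ifnphi3 and ifnphi4 had only 78, 94 and 36 counts over all 30 libraries and were not tested, while ifnphi1 and ifng1 were. Group means were 9.20 to 11.7 CPM for ifnphi1 and 0.49 to 0.85 CPM for ifng1. Of 13 tested interferons, receptors and JAK kinases, 0 were called in any contrast. With LPS, ifng1, the interferon gamma gene, had log2 fold changes of 0.78, -0.49 and -0.28 at 24, 28 and 32 °C (adjusted p = 0.553, 0.860 and 0.949), and ifnphi1 had -0.28, -0.27 and 0.034 (adjusted p = 0.737, 0.866 and 0.989). Of 20 nucleic acid sensors, adaptors and kinases, 0 were called in any contrast.

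Among 41 tested interferon-stimulated genes outside the list, 3 were called between 24 and 28 °C controls, 1 between 32 and 28 °C controls and 1 each in the differences of response against 28 °C. Of all genes, 2.47% and 0.633% were called in these control contrasts. For the differences of response at 24 and 32 °C against 28 °C the shares were 0.751% and 0.112%. cxcl11.1 (ENSDARG00000100662), whose mammalian counterpart is an interferon gamma-induced T cell chemokine, had 3.40, 16.6, 7.52, 10.2 and 3.02 CPM in 24 °C controls, against 22.2, 199, 50.6, 78.0 and 96.9 CPM in 28 °C controls, the highest of them in replicate 2 (-3.45 ± 0.80, adjusted p = 0.0280). batf2 (ENSDARG00000105562), a transcription factor, fell by 2.71 on the log2 scale at 24 °C (adjusted p = 0.0470), and helz2a (ENSDARG00000016527), a helicase gene, rose by 1.99 (adjusted p = 0.0388). The cxcl11.1 call was lost without any 1 of 24 °C control replicate 4 and 28 °C control replicates 2, 3 and 7 (-3.60 to -2.97), that of helz2a in 9 of 30 fits that left out 1 library (1.65 to 2.24) and that of batf2 in 19 of 30 (-2.89 to -2.19). All 3 calls were also lost without the 3 libraries that stood apart, for cxcl11.1 (-3.42, adjusted p = 0.121), helz2a (2.02, adjusted p = 0.111) and batf2 (-2.59, adjusted p = 0.180), and in a fit of only these groups (adjusted p = 0.0631 for cxcl11.1, adjusted p = 0.0810 for helz2a and adjusted p = 0.111 for batf2).

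phf11 (ENSDARG00000021677) rose by 0.88 in 32 °C over 28 °C controls (adjusted p = 0.0488), a call lost in 25 of 30 fits that left out 1 library (0.76 to 0.88), in a fit that dropped the 3 libraries named above (0.99, adjusted p = 0.0855) and in a fit of only these groups (adjusted p = 0.146). Of 21 interferon-inducible antigen processing genes, ciita (ENSDARG00000090851), the master regulator of MHC class II, rose by 1.62 there (adjusted p = 0.0254, 0.633% of all genes called), and no other was called in any contrast. Its call was lost without any 1 of 28 °C control replicates 2, 3, 5 and 7 and 32 °C control replicates 3 and 8 (1.33 to 1.73), in a fit that dropped the 3 libraries named above (1.31, adjusted p = 0.138) and in a fit of only these groups (adjusted p = 0.129). The LPS response of cxcl11.1 was higher at 24 than at 28 °C by 4.65 ± 1.08 (adjusted p = 0.0410), opposite in sign to rsad2. lgals3bp.1 (ENSDARG00000040528), a secreted glycoprotein gene, had a response lower at 32 than at 28 °C (difference -4.71 ± 0.96, adjusted p = 0.0411). These calls were lost in 10 and 20 of 30 fits that left out 1 library (4.22 to 4.88 and -4.81 to -4.07). Without the 3 libraries that stood apart both were lost, cxcl11.1 (4.62, adjusted p = 0.0570) and lgals3bp.1 (-4.37, adjusted p = 0.121), and that of lgals3bp.1 was lost in a fit of only the groups compared (adjusted p = 0.162).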

How the data were processed

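Per the labels' protocols, spleen RNA was poly(A)-selected and sequenced as directional libraries. The submitters' processing notes name STAR, cutadapt 1.12, FastQC 0.11.5, bcl2fastq and DESeq2 1.11.1, and GRCz11 as the build. Which program counted reads, with which annotation and strand setting, is not given in the sources used here. Reads of paralogs or overlapping genes may therefore be split or shared. The authors deposited whole-number counts per gene and library for 31901 Ensembl IDs, not normalised, of which 29178 have a symbol in the name table.

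The fit used edgeR 4.0.16 in R 4.3.3: filterByExpr left 17841 genes, libraries were scaled by TMM, and all 30 libraries entered 1 robust quasi-likelihood fit with a mean per group (24 residual degrees of freedom, common biological coefficient of variation 0.503). P values were adjusted by Benjamini-Hochberg over all genes tested, and adjusted p in the text comes from this test unless DESeq2 1.42.0 or limma 3.58.1 voom is named. SE was taken as the size of the log2 fold change over the root of the F statistic. Marker sums are CPM of the library total. The genes, lists and contrasts were chosen with earlier results of these data known, so their patterns are not independent evidence. All 35 genes were named by the rule: called genes, then up to 4 further genes of smallest p per contrast.

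In data simulated for LPS at 24 °C (17841 genes), edgeR found 42% of the 2-fold and 77% of the 4-fold changes that had been put in. These changes were put into 100 genes of each size, all above a count limit that ifit9 and ifit14 lie below. The shares therefore do not cover genes of few counts. Library totals (14840723 to 23401031 counts) bound the precision of counting. Within groups, any 2 libraries differed by more than sampling noise (chi-square over its degrees of freedom at least 32.8). Alternatives were other scalings, filters and tools, fits of only the groups compared, the replicate number as a block, and leaving out libraries. Sequences and 2 names of the list are not reported here.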

Additional observations from a re-analysis of the deposited data

Results flagged for a closer look

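In groups of 5 fish, a fish far from the other 4 (a gap to its nearest neighbour past Dixon's critical value) is listed here with the range of those 4 as others. It was found in 16 of 210 gene and group combinations, and chance flags about 1 in 20. In 32 °C control replicate 6 this concerned irf5 (24.4 CPM, others 34.9 to 36.3 CPM). In 28 °C LPS replicate 1 this concerned irf7 (119 CPM, others 60.5 to 75.7 CPM). In 32 °C LPS replicate 2 this concerned irf8 (154 CPM, others 98.7 to 112 CPM), ifih1 (34.8 CPM, others 9.70 to 12.6 CPM) and eif2ak2 (5.92 CPM, others 0.927 to 2.21 CPM). In 28 °C control replicate 2 this concerned irf9 (57.5 CPM, others 25.7 to 32.9 CPM). In 28 °C control replicate 5 this concerned mxb (1.65 CPM, others 0.0577 to 0.469 CPM). In 28 °C LPS replicate 3 this concerned ifih1 (28.8 CPM, others 13.8 to 17.8 CPM). In 24 °C control replicate 3 this concerned dhx58 (112 CPM, others 29.2 to 40.8 CPM), pkz (33.97 CPM, others 14.1 to 18.3 CPM), gbp4 (6.90 CPM, others 0.263 to 2.08 CPM) and ifi30 (107 CPM, others 71.4 to 78.8 CPM). In 24 °C LPS replicate 3 this concerned usp18 (23.5 CPM, others 10.9 to 13.0 CPM), gbp1 (401 CPM, others 98.3 to 126 CPM) and gbp4 (10.7 CPM, others 1.122 to 2.73 CPM). In 32 °C control replicate 8 this concerned gbp1 (322 CPM, others 88.7 to 124 CPM). 

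The LPS response differed between incubation temperatures, by an interaction test in edgeR, for rsad2 (24 minus 28 °C, log2 difference -3.26), cxcl11.1 (24 minus 28 °C, 4.65) and lgals3bp.1 (32 minus 28 °C, -4.71). Each was called by the same threshold as in the report, and all 3 contrasts use the 28 °C controls. With no filter on low counts all 3 calls were lost (edgeR adjusted p = 0.0656, 0.0842 and 0.0937 in this order). With the replicate number as a block those of rsad2 and cxcl11.1 were lost (adjusted p = 0.0555 and 0.0780). With library totals that of lgals3bp.1 was lost (adjusted p = 0.149). What lies behind these differences was not tested.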

How the results depend on the processing

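The counts of called genes of the 35 were small and changed with the tool. With DESeq2 they were 1 for LPS against control at 28 °C, 1 at 32 °C, 7 for the difference of responses at 24 and 28 °C, 4 for that at 32 and 28 °C, 10 between 24 and 28 °C controls, 7 between 32 and 28 °C controls and 1 between 32 and 24 °C controls, against 0, 0, 1, 0, 1, 2 and 0 with edgeR. With limma voom they were 2 for the difference at 24 and 28 °C and 0 between 24 and 28 °C controls. With no filter on low counts they were 0 for that difference and 1 between 32 and 28 °C controls, and with library totals 1 between 32 and 28 °C controls. Without the 3 libraries that stood apart, and in fits of only the groups compared, they were 0 between 24 and 28 °C controls and 0 between 32 and 28 °C controls. Leaving out 1 library at a time gave 0 to 3 calls for the difference at 24 and 28 °C, 0 to 2 for that at 32 and 28 °C, 0 to 4 between 24 and 28 °C controls, 0 to 3 between 32 and 28 °C controls and 0 to 1 between 32 and 24 °C controls. The cause of these changes was not tested, and the shares of all genes called by DESeq2 and limma voom are not given here. With the replicate number as a block the counts were 0 for the difference at 24 and 28 °C, 1 for that at 32 and 28 °C, 0 between 24 and 28 °C controls and 1 between 32 and 24 °C controls. The deviations of same-numbered LPS and control libraries had correlations of -0.14 to 0.44 over 9 pairs. Differently numbered libraries were not compared in this way, so whether same-numbered fish shared a batch was not tested. Library totals in place of TMM moved the median of all genes by -0.25 for LPS at 28 °C and 0.32 for the difference at 24 and 28 °C. The median of the 35 genes relative to all genes was 0.35 against 0.36 with TMM at 28 °C. Scaling shifts all genes of a library alike, so this near equality follows from the method and tests nothing. Genes near 0 changed sign with library totals (usp18, irf3, irf5 and irf8 for LPS at 28 °C). Among fits of single genes without 1 library, 1150 kept their side of the threshold, 117 lost a call and 23 gained one, and among other alternatives 325, 44 and 18, all with the same sign. Most of the results pooled here were not called in the main fit and could not lose a call. The 1150 and 325 therefore do not measure how stable the calls were. Genes of few counts, such as mxb, ifit9, ifit10 and ifit14, are limited by depth.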
